A study of Rhododendron with 15 samples.

Results

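Leaves of Rhododendron 'xiaotaohong', a woody ornamental, were compared at 35 °C and at 25 °C, both without melatonin. The comparison took 6 of the 15 libraries of the series, 3 at each temperature, chosen by their temperature and melatonin labels and not by any measured value. Another 3 groups of 3 libraries complete the series: leaves given 40 °C and no melatonin, and leaves given melatonin at either 35 °C or 40 °C. They entered the fit for the estimate of spread, and the 40 °C group is quoted for the levels of some named genes and of the PPR family, with the fit's 40 °C over 35 °C change for some of those genes. The length of the heat exposure, the hour of harvest, the age of the plants and whether a group's libraries came from separate plants are not stated by the labels. All p-values therefore measure the spread between these libraries, which may be technical.

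PolyA RNA was sequenced, and the deposited table gives a read count and an FPKM level (fragments scaled for gene length and for library depth, so that genes can be compared with each other) for each gene and library. Total counts were 64813626 to 68267949 per library at 35 °C and 56619232 to 57576522 at 25 °C, and 25052 to 25672 genes at 35 °C and 25109 to 25150 genes at 25 °C had a count. A gene was called where edgeR's quasi-likelihood test gave a Benjamini-Hochberg adjusted p under 0.05 over all genes tested. "Rose" and "fell" below refer to called genes. Genes named with their values were picked only where the 2 groups did not overlap in FPKM. A lack of overlap in a named gene is therefore no added support, and 58.4% of all genes tested had it. Of 26183 genes tested, 49.1% were called, with 25.5% higher and 23.6% lower at 35 °C, and 8.72% were called and at least 2-fold higher and 7.98% at least 2-fold lower. These shares are the background for every count below, and the median log2 fold change over all genes tested was 0.01. The shares changed with level: among genes with a mean of 10 FPKM or more over the 6 libraries, 29.6% rose and 38.8% fell. Below 1 FPKM, 13.8% rose and 7.05% fell. Lists were not matched for level, so falls in a list of highly expressed genes can lie near that 38.8%. Informative descriptions were present for 4289 of the genes that rose and 4641 of those that fell. Leaf identity was plain in all 6 libraries: summed FPKM of the 17 tested mesophyll markers (Rubisco small subunit, chlorophyll a-b binding proteins, plastocyanin, carbonic anhydrase) was 19024 to 20275 FPKM at 35 °C and 18842 to 19912 FPKM at 25 °C, and the 1 flower bud marker tested was at or near 0. In such bulk leaf RNA, fewer cells of a type and less RNA per cell cannot be told apart.

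A plant leaf at moderately raised temperature must keep photosynthesis, protein folding and membrane function running near the upper end of the range it grows in. Chloroplasts and mitochondria carry small genomes of their own, whose transcripts are cut, spliced, edited and stabilised by proteins encoded in the nucleus. The largest family of these is the pentatricopeptide repeat (PPR) proteins, RNA-binding proteins that mostly act in chloroplasts and mitochondria, each on few transcripts.

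PPR genes rose far more often than they fell at 35 °C. Of 479 PPR genes tested, 291 rose and 13 fell, and 106 of them rose at least 2-fold. As shares of the family, 60.8% rose, against 25.5% of all genes, and 2.71% fell, against 23.6%. The median log2 fold change was 0.63, and 419 of the 479 had a positive value. Summed over the family, the level was 2891, 2927 and 3005 FPKM at 35 °C, against 2045, 2100 and 2031 FPKM at 25 °C. Every library at 35 °C lay above every library at 25 °C. The median member had 3.22, 3.24 and 3.22 FPKM at 35 °C, against 1.9, 2.04 and 1.94 FPKM at 25 °C.

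The shift was spread over low and high members. Among PPR genes with a mean of 1 to 3 FPKM over the 6 libraries, 98 of 148 rose, or 66.2%, against 28.8% of all genes in that range. Among those at 10 FPKM or more, 40 of 54 rose, or 74.1%, against 29.6% of all genes at that level. Below 1 FPKM, 40 of 108 rose, or 37.0%, against 13.8% of all genes. The groups did not overlap in FPKM for 355 PPR genes, 337 of them with the higher values at 35 °C, while 58.4% of all genes tested had groups that did not overlap.

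**Figure D1:**
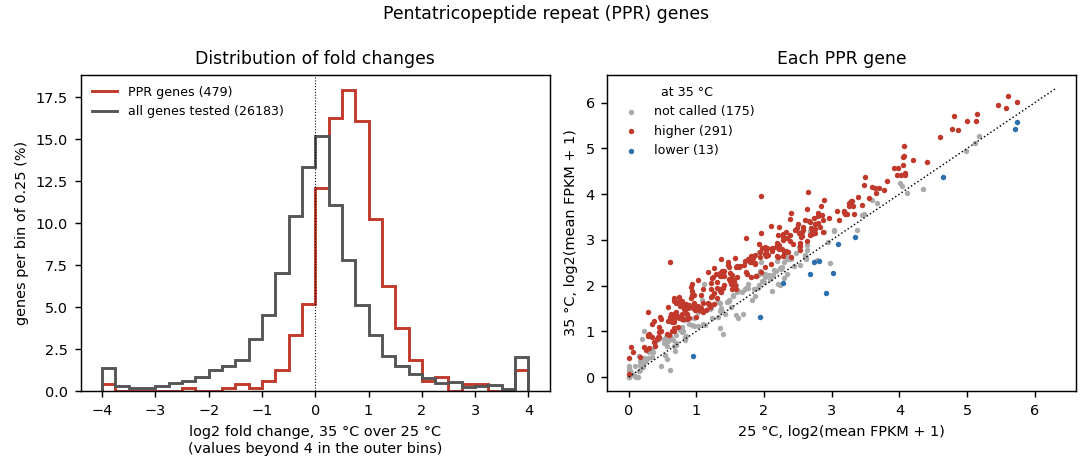
Pentatricopeptide repeat genes at 35 °C and 25 °C. Left, log2 fold changes (35 °C over 25 °C) of the 479 PPR genes in red and of all 26183 genes tested in grey, as the percentage of genes in each bin, and right, each PPR gene's mean level at 35 °C (vertical) against 25 °C (horizontal) as log2(mean FPKM + 1), with the dotted line marking equal levels. The PPR distribution is centred near 0.63 and the overall one near 0.01, and 291 genes called higher lie above the line.

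Single members show the size of these changes. MSTRG.9175, described by its likeness to the Arabidopsis protein At1g09190 (chromosome 5, 21985690 to 21987147, coordinates as the deposited table gives them), had 13.8, 15 and 14.9 FPKM at 35 °C, against 2.71, 3.21 and 2.77 FPKM at 25 °C. The groups were far apart, with a log2 fold change of 2.27 ± 0.11 (SE, edgeR adjusted p = 4.0e-10). MSTRG.1548 had 14.5, 14.5 and 17.2 FPKM at 35 °C, against 5.93, 5.68 and 4.23 FPKM at 25 °C, a log2 fold change of 1.48 ± 0.12 (SE, edgeR adjusted p = 9.4e-08). MSTRG.1031 had 7.64, 7.23 and 6.66 FPKM at 35 °C, against 1.79, 2.92 and 2.28 FPKM at 25 °C, again with no overlap. In the opposite direction, MSTRG.1412 averaged 2.58 ± 0.875 FPKM at 35 °C and 6.54 ± 1.3 FPKM at 25 °C (mean ± SD, n = 3 each, as for all means below), with a log2 fold change of -1.4 ± 0.33 (SE, edgeR adjusted p = 0.003). At 40 °C the family summed to 2749, 2905 and 2909 FPKM, which overlapped the range at 35 °C and lay above that at 25 °C.

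Other proteins that serve organelle gene expression also rose more often than they fell. Their list was added after values had been seen and is described only. In a list of 51 such genes (sigma factors of the plastid RNA polymerase, mitochondrial and plastid transcription termination factors, editing and intron splicing factors), 25 rose and 3 fell, with a median log2 fold change of 0.36. Summed over its members, the level was 1317 to 1352 FPKM at 35 °C and 944 to 965 FPKM at 25 °C. An editing factor of the MORF type, MSTRG.4232, averaged 15.9 ± 0.521 FPKM at 35 °C and 6.55 ± 0.825 FPKM at 25 °C, a log2 fold change of 1.22 ± 0.10 (SE, edgeR adjusted p = 1.6e-07). MSTRG.21268, annotated as PLASTID TRANSCRIPTIONALLY ACTIVE 10, a component that accompanies the plastid RNA polymerase, averaged 78.5 ± 3.52 FPKM at 35 °C and 35.3 ± 1.85 FPKM at 25 °C, a log2 fold change of 1.09 ± 0.05 (SE, edgeR adjusted p = 2.1e-10). The sigma factor sigE-like MSTRG.5658 went the other way, with 51.9 ± 1.84 FPKM at 35 °C and 86.3 ± 4.35 FPKM at 25 °C, a log2 fold change of -0.79 ± 0.04 (SE, edgeR adjusted p = 3.4e-09). Transcripts of the organelle genomes themselves took similar shares of the counts in both groups in these polyA-selected libraries: plastid genes 0.264 to 0.434% at 35 °C and 0.286 to 0.450% at 25 °C, and mitochondrial genes 0.0156 to 0.0237% at 35 °C and 0.0204 to 0.0266% at 25 °C. Both pairs of ranges overlapped. Ribosomal proteins of the bacterial type, which build organelle ribosomes, were nearer to the background, and of 80 tested, 26 rose and 17 fell (11 fell without 25 °C replicate 1 or replicate 3).

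RNA handling in the nucleus had no single direction. Of 131 splicing genes, 53 rose and 26 fell, with a median log2 fold change of 0.16. Their summed level was 2704 to 2733 FPKM at 35 °C and 2455 to 2487 FPKM at 25 °C. The wider spliceosome pathway of the deposited annotation had 82 rises and 82 falls among 291 genes, with a median of 0.006. The pathway's summed level was 7127 to 7148 FPKM at 35 °C and 9130.4 to 9155 FPKM at 25 °C. Which of its genes carried that lower sum was not tested. The splicing list above summed higher at 35 °C, so the pathway's sum cannot be read as a fall of splicing transcripts. SR45a is a serine/arginine-rich splicing factor known in Arabidopsis for its response to stress. Of the SR45a-like genes, MSTRG.18405 averaged 64.4 ± 1.15 FPKM at 35 °C and 26.4 ± 1.6 FPKM at 25 °C (log2 fold change 1.23 ± 0.07 (SE, edgeR adjusted p = 2.7e-09)), while MSTRG.22101 averaged 162 ± 5.58 FPKM at 35 °C and 278 ± 1.18 FPKM at 25 °C (log2 fold change -0.84 ± 0.03 (SE, edgeR adjusted p = 5.8e-11)). These similar genes thus differed in sign, and how the counting divided reads between close copies was not tested. Of 62 genes of ribosome assembly, 18 rose and 12 fell, and of 111 cytosolic ribosomal protein genes, 20 rose and 40 fell. Among 46 translation factors, 14 rose and 9 fell. An elongation factor 1-alpha-like gene, MSTRG.1678, which carries aminoacyl-tRNA to the ribosome, had 784, 762 and 760.5 FPKM at 35 °C, against 339, 332 and 339 FPKM at 25 °C, and the groups did not overlap (log2 fold change 1.13 ± 0.03 (SE, edgeR adjusted p = 1.1e-12)).

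Chlorophyll synthesis had the highest share of genes that rose among the lists with 20 or more tested genes. This pathway builds the tetrapyrrole ring from glutamate, inserts magnesium and later reduces protochlorophyllide, a light-driven step in flowering plants. Of 22 enzyme genes tested, 15 rose and 4 fell, with a median log2 fold change of 0.39. With limma on log2(FPKM + 1), 2 fell in place of 4. Summed FPKM was 2225 to 2258 FPKM at 35 °C and 1556 to 1598 FPKM at 25 °C.

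The entry step was among the genes that fell. Glutamyl-tRNA reductase, which commits glutamate to the pathway, fell in both of its genes: MSTRG.13301 averaged 29.7 ± 1.25 FPKM at 35 °C and 44.2 ± 1.84 FPKM at 25 °C, with a log2 fold change of -0.63 ± 0.06 (SE, edgeR adjusted p = 6.6e-07), and MSTRG.10516 averaged 135 ± 4.96 FPKM at 35 °C and 143 ± 1.9 FPKM at 25 °C, with a log2 fold change of -0.14 ± 0.04 (SE, edgeR adjusted p = 0.017). The small difference of MSTRG.10516 was no longer called with limma on log2(FPKM + 1), nor without 35 °C replicate 2 (-0.13), 35 °C replicate 3 (-0.11) or 25 °C replicate 1 (-0.12). Delta-aminolevulinic acid dehydratase, which joins precursor molecules into the pyrrole, rose: MSTRG.9278 had 105, 105 and 108 FPKM at 35 °C, against 56.8, 62.5 and 52.9 FPKM at 25 °C. All 3 libraries at 35 °C were higher, with a log2 fold change of 0.82 ± 0.05 (SE, edgeR adjusted p = 6.8e-09). The coproporphyrinogen oxidase MSTRG.3591 averaged 28 ± 0.81 FPKM at 35 °C and 13 ± 0.527 FPKM at 25 °C, with a log2 fold change of 1.05 ± 0.06 (SE, edgeR adjusted p = 6.0e-09). Of the magnesium chelatase subunits, ChlD and ChlH rose and ChlI fell.

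The largest change of the pathway was at its light-driven step. The protochlorophyllide reductase MSTRG.11421 (chromosome 6, 31568770 to 31571700) had 219.9, 215 and 215 FPKM at 35 °C, against 28, 25 and 24.7 FPKM at 25 °C. The libraries at each temperature were close together and the groups far apart, with a log2 fold change of 3.0 ± 0.05 (SE, edgeR adjusted p = 1.0e-14). The list held another 2 genes of this enzyme, and both rose as well. The same gene had 619, 547 and 556 FPKM at 40 °C, with a log2 fold change over 35 °C of 1.56 ± 0.05 (SE, edgeR adjusted p = 1.3e-12).

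**Figure D2:**
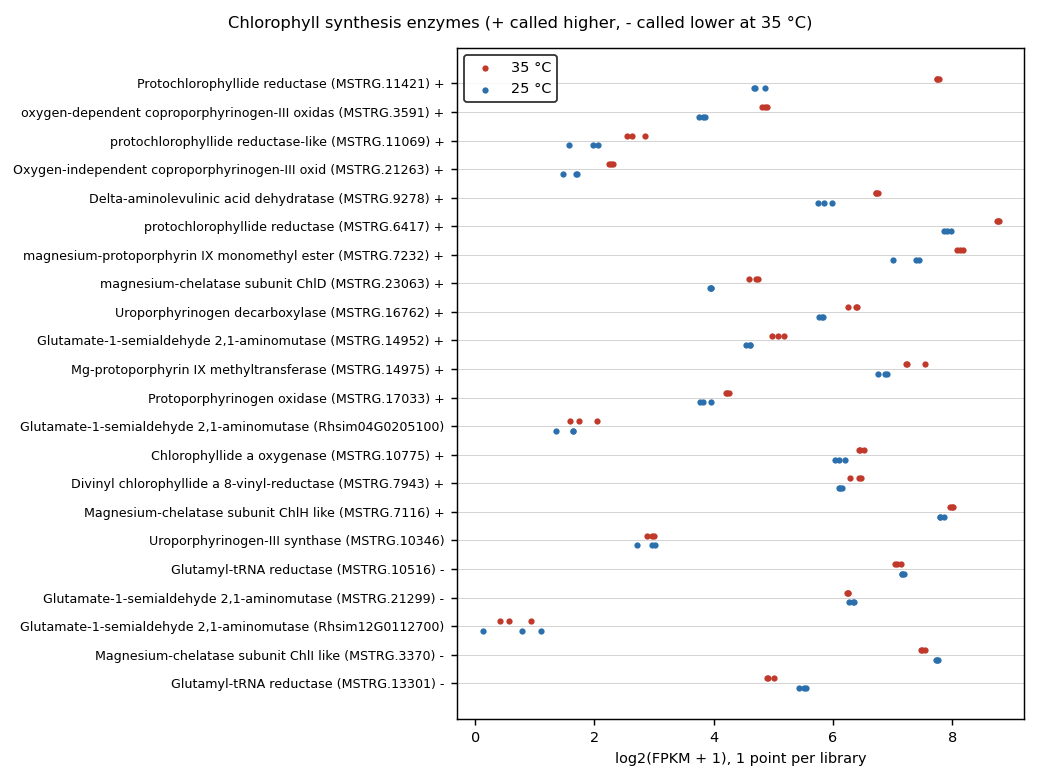
Levels of all 22 tested chlorophyll synthesis enzymes in each library. Rows are genes ordered by log2 fold change, the horizontal axis is log2(FPKM + 1), and each point is 1 library (35 °C in red, drawn above 25 °C in blue). Protochlorophyllide reductase MSTRG.11421 stands apart at the top, and the glutamyl-tRNA reductases lie to the left of their 25 °C points near the bottom.

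Genes of chlorophyll loss and of leaf senescence fell more often than they rose. Of 15 tested, 1 rose and 7 fell, and 6 fell at least 2-fold (2 rose without 25 °C replicate 1). A senescence-related gene, MSTRG.19932, averaged 19.2 ± 1.82 FPKM at 35 °C and 47.6 ± 2.56 FPKM at 25 °C, a log2 fold change of -1.37 ± 0.11 (SE, edgeR adjusted p = 1.4e-07). Pheophytinase removes the phytol tail during chlorophyll breakdown, and its genes were split: MSTRG.1047 averaged 64.4 ± 0.316 FPKM at 35 °C and 43.1 ± 1.18 FPKM at 25 °C (log2 fold change 0.52 ± 0.04 (SE, edgeR adjusted p = 5.1e-08)), and the merged locus MSTRG.14468, whose counts sum over neighbouring gene names, averaged 4.48 ± 0.191 FPKM at 35 °C and 16.5 ± 0.995 FPKM at 25 °C (log2 fold change -1.94 ± 0.10 (SE, edgeR adjusted p = 7.0e-10)).

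Light capture changed in its parts more than in its total. Among 17 light-harvesting genes, 4 rose and 7 fell, and the summed level was 14279.7 to 15173 FPKM at 35 °C and 15019.5 to 15974 FPKM at 25 °C, ranges that overlap. Chlorophyll a-b binding protein 13, MSTRG.24636, an antenna protein, had 110.4, 106 and 107 FPKM at 35 °C, against 702, 661 and 694 FPKM at 25 °C. The groups were widely separated, at a log2 fold change of -2.73 ± 0.06 (SE, edgeR adjusted p = 5.5e-14). In contrast, the merged locus MSTRG.9800, annotated as the minor antenna protein CP29.1, had 1732, 1466 and 1458 FPKM at 35 °C, against 863, 834 and 917 FPKM at 25 °C, a log2 fold change of 0.77 ± 0.08 (SE, edgeR adjusted p = 1.2e-06). Chlorophyll a-b binding protein 8, MSTRG.6506, an antenna gene of high level, had 3809, 3950.0 and 3878 FPKM at 35 °C, against 3054, 2998 and 3049 FPKM at 25 °C, a log2 fold change of 0.29 ± 0.02 (SE, edgeR adjusted p = 6.5e-08).

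Early light-induced proteins are relatives of the antenna proteins that bind pigments transiently under excess light. Their gene group was added after values had been seen and is described only. It holds 8 tested members, of which 2 fell and none was called higher (1 was without 25 °C replicate 1). Both that fell are among the 15 largest falls of named genes. The 2 that fell, MSTRG.2436 and MSTRG.24692, are merged loci and carry nearly all the signal of the group, which summed to 8.89 to 10.3 FPKM at 35 °C and 89.7 to 99.9 FPKM at 25 °C. MSTRG.2436 had 4.35, 2.81 and 3.66 FPKM at 35 °C, against 46.3, 50.1 and 56.5 FPKM at 25 °C, a log2 fold change of -3.88 ± 0.13 (SE, edgeR adjusted p = 9.6e-12). MSTRG.24692 had 3.65, 3.31 and 3.42 FPKM at 35 °C, against 41.6, 41.5 and 42.1 FPKM at 25 °C, a log2 fold change of -3.65 ± 0.10 (SE, edgeR adjusted p = 8.4e-13). Neither gene's groups overlapped. MSTRG.2436 had 30.6, 28.9 and 30.9 FPKM at 40 °C, above all libraries at 35 °C and below all at 25 °C.

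Carbon fixation genes fell more often than they rose, while falls among electron transport genes were near the share of highly expressed genes. Of 42 photosystem and electron transport genes, 9 rose and 16 fell, against 10 and 11 with limma on log2(FPKM + 1). That share of falls was near the 38.8% among all genes with a mean of 10 FPKM or more. Their summed level overlapped between the groups (22919 to 24648 FPKM at 35 °C and 23184 to 24278 FPKM at 25 °C). Of 19 Calvin cycle genes, 3 rose and 10 fell, and the list summed to 9075 to 10053 FPKM at 35 °C and 10585 to 10763 FPKM at 25 °C. A small photosystem II polypeptide gene, MSTRG.6296, had 110.2, 125 and 116 FPKM at 35 °C, against 806, 697 and 767 FPKM at 25 °C, with no overlap and a log2 fold change of -2.75 ± 0.11 (SE, edgeR adjusted p = 7.0e-11). Ferredoxin, the soluble electron carrier after photosystem I, was lower in MSTRG.19481, with 1382, 1071 and 1042 FPKM at 35 °C, against 2765, 2492 and 2688 FPKM at 25 °C (log2 fold change -1.25 ± 0.09 (SE, edgeR adjusted p = 2.3e-08)). Ferredoxin-NADP reductase, which hands those electrons to NADP, averaged 116 ± 2.82 FPKM at 35 °C and 284 ± 4.41 FPKM at 25 °C in MSTRG.13858 (log2 fold change -1.35 ± 0.04 (SE, edgeR adjusted p = 1.0e-12)). The largest change of the Calvin cycle list was a rise: a gene of Rubisco activase, the chaperone-like enzyme that frees Rubisco of bound inhibitors, MSTRG.9620, had 169.9, 167 and 175 FPKM at 35 °C, against 9.59, 10.2 and 9.2 FPKM at 25 °C, far apart, at a log2 fold change of 4.08 ± 0.04 (SE, edgeR adjusted p = 4.6e-17). Among the falls, phosphoribulokinase, which regenerates the acceptor of carbon dioxide, averaged 380.0 ± 21.3 FPKM at 35 °C and 586 ± 12.3 FPKM at 25 °C in MSTRG.12778 (log2 fold change -0.69 ± 0.04 (SE, edgeR adjusted p = 3.4e-09)). A ribose-5-phosphate isomerase gene, MSTRG.16100, averaged 30.4 ± 3.63 FPKM at 35 °C and 149.9 ± 12.1 FPKM at 25 °C (log2 fold change -2.36 ± 0.12 (SE, edgeR adjusted p = 1.1e-09)). Photorespiration recycles the product of Rubisco's reaction with oxygen, and of its 25 genes, 5 rose and 14 fell (3 rose with RLE scaling). In the deposited pathway annotation, carbon fixation in photosynthetic organisms held 69 tested genes, of which 13 rose and 39 fell, with a median log2 fold change of -0.45.

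Sulfate uptake and reduction had some of the largest decreases. Plants take up sulfate through transporters, activate it with ATP sulfurylase and reduce it on the way to cysteine. Of 61 genes of nitrogen and sulfur assimilation, 9 rose and 23 fell, and 15 fell at least 2-fold against 7.98% of all genes. The list summed to 1690.4 to 1720.5 FPKM at 35 °C and 3069 to 3115 FPKM at 25 °C. The sulfate transporter gene MSTRG.21782 had 26.1, 26.3 and 26.6 FPKM at 35 °C, against 182, 188 and 178 FPKM at 25 °C, a log2 fold change of -2.85 ± 0.19 (SE, edgeR adjusted p = 1.7e-08). An ATP sulfurylase gene, MSTRG.7789, had 9.82, 10.8 and 10.3 FPKM at 35 °C, against 46.3, 49.4 and 47 FPKM at 25 °C, a log2 fold change of -2.27 ± 0.12 (SE, edgeR adjusted p = 1.1e-09). The gene annotated as PAPS-reductase-like, MSTRG.23589 (chromosome ctg246, 16768 to 19847), had 43.5, 44.9 and 49.8 FPKM at 35 °C, against 586, 566 and 594 FPKM at 25 °C. It was among the 15 largest falls of all named genes, at a log2 fold change of -3.72 ± 0.06 (SE, edgeR adjusted p = 5.0e-15).

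Nutrient genes outside sulfur changed in both directions. The merged ammonium transporter locus MSTRG.9862 averaged 19.8 ± 1.46 FPKM at 35 °C and 101 ± 3.13 FPKM at 25 °C, a log2 fold change of -2.41 ± 0.09 (SE, edgeR adjusted p = 6.0e-11). An SPX domain gene, MSTRG.24223, of a family known as phosphate sensors, had 1.74, 1.79 and 1.57 FPKM at 35 °C, against 24.1, 27.8 and 27.7 FPKM at 25 °C, and its groups did not overlap (log2 fold change -4.02 ± 0.15 (SE, edgeR adjusted p = 4.5e-11)). Glutamine synthetase builds ammonium into glutamine, and the merged locus MSTRG.7878 of that name averaged 9.42 ± 0.0478 FPKM at 35 °C and 3.4 ± 0.689 FPKM at 25 °C (log2 fold change 1.41 ± 0.10 (SE, edgeR adjusted p = 5.7e-08)).

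Storage carbohydrate genes changed in both directions, also among the beta-amylase genes. Granule-bound starch synthase makes amylose, and MSTRG.5792 had 274, 272 and 276 FPKM at 35 °C, against 915, 959 and 922 FPKM at 25 °C, a log2 fold change of -1.83 ± 0.04 (SE, edgeR adjusted p = 7.8e-14). Beta-amylase releases maltose from starch: the gene MSTRG.2329 had 94.3, 95.2 and 98 FPKM at 35 °C, against 31.6, 35.2 and 31.9 FPKM at 25 °C, a log2 fold change of 1.48 ± 0.05 (SE, edgeR adjusted p = 2.5e-11), whereas MSTRG.18567, annotated as chloroplast beta-amylase 3, averaged 19 ± 2.0 FPKM at 35 °C and 33.8 ± 0.626 FPKM at 25 °C (log2 fold change -0.90 ± 0.10 (SE, edgeR adjusted p = 3.9e-06)). Over all 26 starch genes, 7 rose and 7 fell, and DESeq2 called 12 lower. Trehalose 6-phosphate, a signal of sugar status, is made by a synthase and removed by a phosphatase. A synthase gene, MSTRG.146, had 19.8, 23 and 21.8 FPKM at 35 °C, against 3.69, 3.14 and 3.6 FPKM at 25 °C (log2 fold change 2.57 ± 0.08 (SE, edgeR adjusted p = 2.6e-12)). A phosphatase gene, MSTRG.13682, had 0.937, 1.03 and 0.536 FPKM at 35 °C, against 19.5, 18.8 and 22 FPKM at 25 °C (log2 fold change -4.64 ± 0.59 (SE, edgeR adjusted p = 3.2e-05)). In neither case did the groups overlap. Of 35 sucrose and trehalose genes, 6 rose and 17 fell.

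Sugars of the raffinose family, which accumulate under stress in many plants, included genes of large change in both directions. Stachyose synthase MSTRG.21616 had 0.417, 0.404 and 0.481 FPKM at 35 °C, against 8.96, 8.62 and 8.01 FPKM at 25 °C (log2 fold change -4.35 ± 0.19 (SE, edgeR adjusted p = 1.5e-10)). A galactinol-sucrose galactosyltransferase gene (raffinose synthase), MSTRG.17123, averaged 10.8 ± 1.29 FPKM at 35 °C and 40.2 ± 1.0 FPKM at 25 °C (log2 fold change -1.95 ± 0.09 (SE, edgeR adjusted p = 1.8e-10)). Inositol-3-phosphate synthase, which supplies inositol, averaged 69.8 ± 2.53 FPKM at 35 °C and 230.5 ± 5.56 FPKM at 25 °C in MSTRG.13681 (log2 fold change -1.79 ± 0.05 (SE, edgeR adjusted p = 1.2e-12)). Alpha-galactosidases, which take these sugars apart, rose in MSTRG.15586, with 44.2 ± 0.925 FPKM at 35 °C and 9.54 ± 0.929 FPKM at 25 °C (log2 fold change 2.15 ± 0.06 (SE, edgeR adjusted p = 5.8e-13)). The whole list of 19 genes was balanced, and 7 rose and 6 fell. Central respiration leaned lower: of 35 citrate cycle genes, 6 rose and 17 fell, and of 80 glycolysis and fermentation genes, 18 rose and 30 fell.

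**Figure D3:**
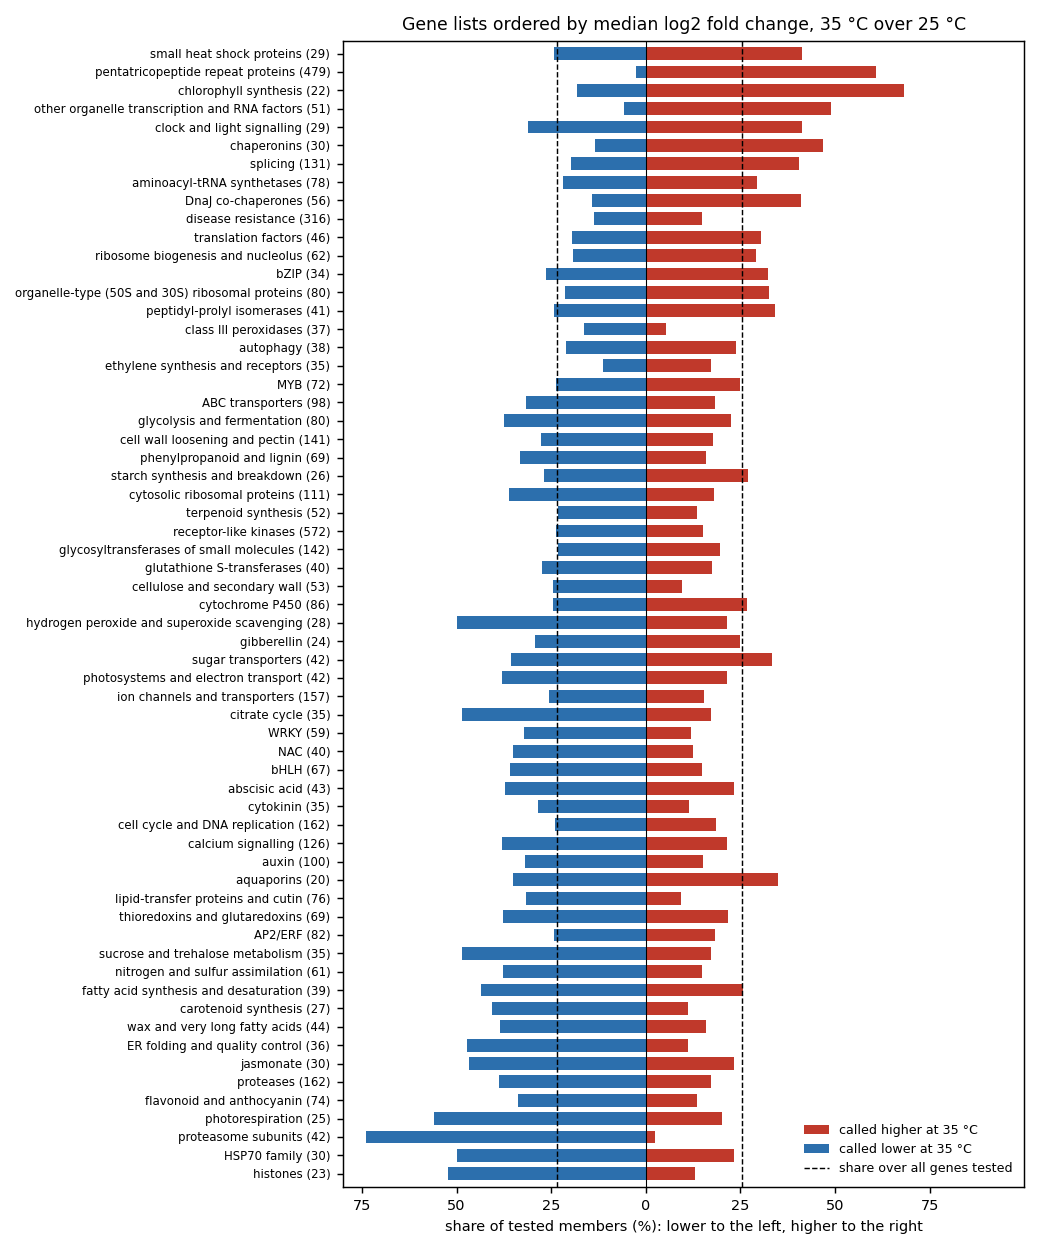
Shares of each gene list called higher (red, to the right) and lower (blue, to the left) at 35 °C, for lists with 20 or more tested members, whose number stands in brackets. Lists run from the highest median log2 fold change at the top to the lowest at the bottom. The dashed lines are the shares over all genes tested (25.5% higher, 23.6% lower), not matched for level. PPR genes and chlorophyll synthesis extend farthest to the right, and proteasome subunits extend farthest to the left.

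Protein folding genes did not move as a block. DnaJ and chaperonin genes rose more often than they fell, and genes of the HSP70 family and of folding in the endoplasmic reticulum (ER) fell more often than they rose. Of 56 DnaJ co-chaperones, which deliver clients to HSP70, 23 rose and 8 fell. The DnaJ 11-like gene MSTRG.10129 had 547, 378 and 363 FPKM at 35 °C, against 73.2, 66.8 and 76.7 FPKM at 25 °C. A single library at 35 °C stood above the other 2, and all 3 lay above 25 °C, with a log2 fold change of 2.51 ± 0.13 (SE, edgeR adjusted p = 1.7e-09). Its relative MSTRG.19915 had 284, 223 and 209.7 FPKM at 35 °C, against 34.7, 34.1 and 30.8 FPKM at 25 °C, a log2 fold change of 2.78 ± 0.09 (SE, edgeR adjusted p = 1.2e-11). Of 30 chaperonin genes, the barrel-shaped folding machines, 14 rose and 4 fell, and a chaperonin 60 alpha gene, MSTRG.22485, averaged 48.2 ± 3.08 FPKM at 35 °C and 18.5 ± 1.45 FPKM at 25 °C (log2 fold change 1.32 ± 0.06 (SE, edgeR adjusted p = 1.2e-10)).

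HSP70 proteins bind and release unfolded proteins at the cost of ATP, and their genes differed in sign: of 30 tested, 7 rose and 15 fell. The list summed to 1642 to 1665 FPKM at 35 °C and 3967 to 4031 FPKM at 25 °C. The gene MSTRG.21346 had 46.5, 45.2 and 49.8 FPKM at 35 °C, against 3.7, 2.89 and 3.07 FPKM at 25 °C, a log2 fold change of 3.81 ± 0.08 (SE, edgeR adjusted p = 5.1e-14), and a mitochondrial member, MSTRG.8897, averaged 92.5 ± 3.84 FPKM at 35 °C and 49.4 ± 0.644 FPKM at 25 °C (log2 fold change 0.84 ± 0.03 (SE, edgeR adjusted p = 8.4e-11)). The ER member, luminal-binding protein MSTRG.4107, averaged 24.3 ± 1.21 FPKM at 35 °C and 99.1 ± 5.67 FPKM at 25 °C (log2 fold change -2.09 ± 0.09 (SE, edgeR adjusted p = 1.0e-10)). The words of the list missed MSTRG.18891, annotated as a chloroplast 70 kDa heat shock-related protein. That gene averaged 35.9 ± 0.757 FPKM at 35 °C and 2.55 ± 0.197 FPKM at 25 °C (log2 fold change 3.75 ± 0.06 (SE, edgeR adjusted p = 3e-15)). Of 36 genes of ER folding and quality control, 4 rose and 17 fell. The derlin gene MSTRG.22666, whose protein works in removal of misfolded ER proteins, averaged 24.7 ± 2.11 FPKM at 35 °C and 43.9 ± 2.69 FPKM at 25 °C (log2 fold change -0.89 ± 0.10 (SE, edgeR adjusted p = 5.3e-06)).

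Small heat shock proteins hold unfolding proteins in a soluble state. Of 29 genes, 12 rose and 7 fell. The list summed to 2054 to 2252 FPKM at 35 °C and 1942 to 2067 FPKM at 25 °C, ranges that overlap. MSTRG.20279, annotated as HSP27.4, was missed by the words of the list. That gene averaged 233 ± 3.73 FPKM at 35 °C and 19 ± 1.26 FPKM at 25 °C (log2 fold change 3.56 ± 0.07 (SE, edgeR adjusted p = 2.9e-14)). The class I gene MSTRG.16626 had 104, 101 and 106 FPKM at 35 °C, against 5.55, 4.5 and 4.25 FPKM at 25 °C, a log2 fold change of 4.38 ± 0.07 (SE, edgeR adjusted p = 5.1e-15), and the class IV gene MSTRG.19351 had 84.4, 62.5 and 65.6 FPKM at 35 °C, against 3.09, 2.36 and 3.99 FPKM at 25 °C, a log2 fold change of 4.42 ± 0.15 (SE, edgeR adjusted p = 1.1e-11). A mitochondrial small heat shock protein, MSTRG.5414, had 104, 76 and 74 FPKM at 35 °C, against 308, 306 and 314 FPKM at 25 °C, lower in all 3 libraries at 35 °C (log2 fold change -1.93 ± 0.11 (SE, edgeR adjusted p = 2.5e-09)). The same gene had 912, 1087 and 1094 FPKM at 40 °C, the highest of the 3 temperatures, at a log2 fold change over 35 °C of 3.76 ± 0.12 (SE, edgeR adjusted p = 7.8e-13). FtsH6, a chloroplast thylakoid protease that in Arabidopsis degrades a small heat shock protein, is annotated in the merged locus MSTRG.18287, which averaged 29.9 ± 1.93 FPKM at 35 °C and 6.35 ± 0.416 FPKM at 25 °C (log2 fold change 2.17 ± 0.08 (SE, edgeR adjusted p = 4.2e-11)). Among late embryogenesis abundant (LEA) proteins, which protect other proteins on drying, 7 rose and 3 fell of 15. The gene MSTRG.21656 averaged 690.1 ± 12.8 FPKM at 35 °C and 345 ± 14.2 FPKM at 25 °C (log2 fold change 0.94 ± 0.04 (SE, edgeR adjusted p = 5.9e-11)), and LEA5, MSTRG.2276, had 6.84, 6.3 and 4.3 FPKM at 35 °C, against 86.7, 85.1 and 87.8 FPKM at 25 °C (log2 fold change -3.95 ± 0.20 (SE, edgeR adjusted p = 1.1e-09)).

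The proteasome cuts up proteins marked with ubiquitin, and its subunits moved by small amounts and mostly downward. Of 42 subunit genes, 1 rose and 31 fell, with a median log2 fold change of -0.39, and 2 fell at least 2-fold. Summed over the list, the level was 1030.3 to 1057 FPKM at 35 °C and 1266 to 1275 FPKM at 25 °C, and the ranges did not overlap. In the catalytic core, the beta type-4 gene MSTRG.22247 had 2.78, 2.76 and 1.66 FPKM at 35 °C, against 4.52, 6.71 and 6.58 FPKM at 25 °C, a log2 fold change of -1.36 ± 0.21 (SE, edgeR adjusted p = 7.1e-05). In the regulatory cap, the non-ATPase subunit 3 gene MSTRG.8572 had 2.95, 3.54 and 2.48 FPKM at 35 °C, against 6.7, 8.14 and 6.63 FPKM at 25 °C, a log2 fold change of -1.32 ± 0.14 (SE, edgeR adjusted p = 2.4e-06). The groups did not overlap for either gene. The 1 gene that rose (none did without 25 °C replicate 3), MSTRG.21727, annotated as PSMD10, an assembly factor of that cap, averaged 6.83 ± 0.224 FPKM at 35 °C and 5.45 ± 0.549 FPKM at 25 °C (log2 fold change 0.27 ± 0.08 (SE, edgeR adjusted p = 0.012)).

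**Figure D4:**
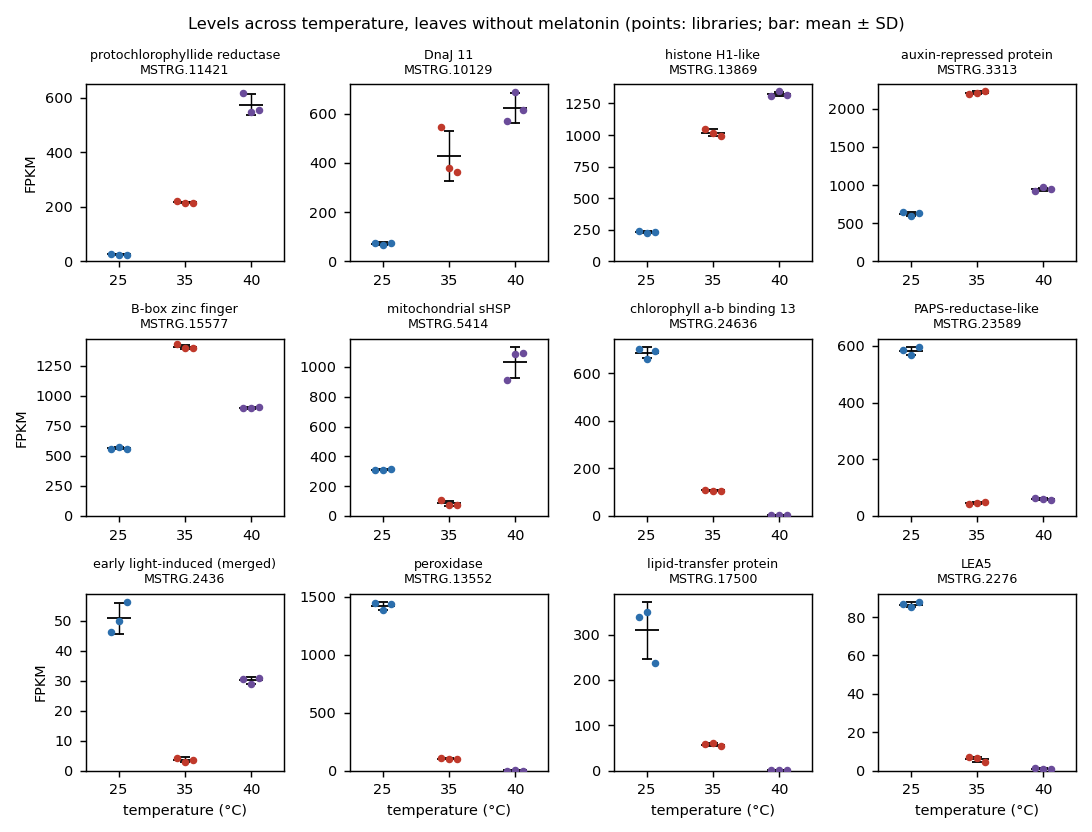
FPKM of 12 named genes in each library at 25 °C, 35 °C and 40 °C without melatonin, with the mean and SD of 3 libraries. Protochlorophyllide reductase MSTRG.11421 increased at each step of temperature, B-box gene MSTRG.15577 was highest at 35 °C, and the mitochondrial small heat shock protein MSTRG.5414 and the early light-induced locus MSTRG.2436 were lowest there.

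Genes of the leaf surface fell more often than they rose. The cuticle seals the leaf with cutin and wax, made and exported by epidermal cells. Of 76 lipid-transfer and cutin genes, 7 rose and 24 fell, 17 of them at least 2-fold lower. Of 44 wax genes, 7 rose and 17 fell (4 rose without 35 °C replicate 3 and 3 without 25 °C replicate 3). The share of wax genes that fell was near the 38.8% among all genes with a mean of 10 FPKM or more. Type 2 lipid-transfer genes on 1 stretch of chromosome 10 fell together. MSTRG.17514 (9286810 to 9287100) had 2.7, 1.86 and 2.69 FPKM at 35 °C, against 44.5, 48 and 45.1 FPKM at 25 °C, a log2 fold change of -4.29 ± 0.40 (SE, edgeR adjusted p = 5.8e-07), and the merged locus MSTRG.17500 (9030765 to 9060037) had 58.3, 60.1 and 53.4 FPKM at 35 °C, against 339.9, 351 and 237 FPKM at 25 °C, a log2 fold change of -2.49 ± 0.17 (SE, edgeR adjusted p = 1.6e-08). The libraries of each group did not overlap for either gene. Neighbouring copies of this kind may share reads, so their values are uncertain individually. MSTRG.9961, another lipid transfer protein, went the other way, with 510.2 ± 25.2 FPKM at 35 °C and 276 ± 12.7 FPKM at 25 °C (log2 fold change 0.83 ± 0.05 (SE, edgeR adjusted p = 1.4e-08)).

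Markers of epidermis and guard cells, a list that shares lipid-transfer and wax genes with those above, had more falls than rises as well: of 44 tested, 3 rose and 18 fell, and they summed to 622 to 639.7 FPKM at 35 °C and 1136 to 1266 FPKM at 25 °C. Vascular markers summed to 532 to 544 FPKM at 35 °C and 383 to 390.5 FPKM at 25 °C, and of 41 tested, 9 rose and 14 fell. The part of a changed mix of cells in these results was not tested.

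Class III peroxidases, secreted enzymes that cross-link cell wall polymers, were dominated by a single gene. MSTRG.13552 (chromosome 7, 35259359 to 35262411) had 108, 101 and 98.1 FPKM at 35 °C, against 1445, 1383 and 1434 FPKM at 25 °C, with a wide gap between the groups and a log2 fold change of -3.86 ± 0.11 (SE, edgeR adjusted p = 2.4e-12). The family of 37 tested genes summed to 241 to 254 FPKM at 35 °C and 1529 to 1592 FPKM at 25 °C, and among them 2 rose and 6 fell (4 rose without 25 °C replicate 2). MSTRG.13552 had 0.233, 0.477 and 0.324 FPKM at 40 °C.

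Flavonoid synthesis, source of pigments and of ultraviolet screens, had more falls than rises. Of 74 genes, 10 rose and 25 fell, with a median log2 fold change of -0.32. In the deposited pathway annotation, anthocyanin biosynthesis had 1 rise and 8 falls among 22 genes. Chalcone synthase, the entry enzyme, averaged 73.7 ± 14.4 FPKM at 35 °C and 189 ± 10.4 FPKM at 25 °C in MSTRG.2638 (log2 fold change -1.42 ± 0.14 (SE, edgeR adjusted p = 9.9e-07)). Flavanone 3-hydroxylase, which acts further along, averaged 25.7 ± 2.65 FPKM at 35 °C and 78.7 ± 1.83 FPKM at 25 °C in MSTRG.13861 (log2 fold change -1.67 ± 0.13 (SE, edgeR adjusted p = 9.1e-08)). A merged flavonoid 3',5'-hydroxylase locus, MSTRG.12535, averaged 95.7 ± 1.42 FPKM at 35 °C and 64.2 ± 2.2 FPKM at 25 °C (log2 fold change 0.52 ± 0.03 (SE, edgeR adjusted p = 1.6e-08)). Of 69 phenylpropanoid and lignin genes, 11 rose and 23 fell. A cinnamoyl-CoA reductase-like gene, MSTRG.14013, whose enzyme class leads to lignin monomers, had 72.1, 76.2 and 72.6 FPKM at 35 °C, against 12.9, 14.8 and 11.2 FPKM at 25 °C, higher in all 3 libraries at 35 °C (log2 fold change 2.45 ± 0.07 (SE, edgeR adjusted p = 2.4e-12)).

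Among 316 genes of disease resistance and pathogen response, 47 rose and 43 fell, fewer calls than the background in each direction, and with RLE scaling 40 rose and 47 fell. Endochitinase, which cuts fungal cell walls, averaged 44.4 ± 7.52 FPKM at 35 °C and 6.98 ± 0.444 FPKM at 25 °C in MSTRG.8550 (log2 fold change 2.61 ± 0.10 (SE, edgeR adjusted p = 4.3e-11)), and a pathogenesis-related gene, MSTRG.18444, averaged 4.17 ± 1.48 FPKM at 35 °C and 26.3 ± 0.65 FPKM at 25 °C (log2 fold change -2.71 ± 0.28 (SE, edgeR adjusted p = 1.4e-06)). Proteases leaned lower, and of 162 tested, 28 rose and 63 fell. An aspartyl protease gene, MSTRG.3910, had 3.1, 3.29 and 3.96 FPKM at 35 °C, against 80.3, 79.5 and 77.3 FPKM at 25 °C, and its groups were far apart (log2 fold change -4.58 ± 0.19 (SE, edgeR adjusted p = 1.4e-10)).

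Clock and light signalling genes were moved in both directions, and the hour at which each group was harvested is not stated by the labels. Of 29 tested, 12 rose and 9 fell, and the list summed to 2451 to 2487 FPKM at 35 °C and 1434 to 1466 FPKM at 25 °C. Much of that sum was the B-box zinc finger gene MSTRG.15577, of a family of light-response regulators, which had 1427, 1395 and 1398 FPKM at 35 °C, against 560.3, 572 and 555 FPKM at 25 °C. The groups did not overlap, and the log2 fold change was 1.26 ± 0.03 (SE, edgeR adjusted p = 7.8e-14). It had 894, 897 and 907 FPKM at 40 °C, a log2 fold change over 35 °C of -0.50 ± 0.03 (SE, edgeR adjusted p = 4.6e-10). Of the ELF4-like genes, relatives of an evening component of the Arabidopsis clock, MSTRG.5922 averaged 109 ± 2.06 FPKM at 35 °C and 36.8 ± 1.06 FPKM at 25 °C (log2 fold change 1.51 ± 0.07 (SE, edgeR adjusted p = 1.7e-10)), and MSTRG.15262 averaged 10.5 ± 1.59 FPKM at 35 °C and 16.3 ± 1.11 FPKM at 25 °C (log2 fold change -0.69 ± 0.15 (SE, edgeR adjusted p = 0.0016)).

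Among the hormone lists, auxin, abscisic acid, cytokinin and jasmonate genes fell more often than they rose. The ethylene, gibberellin and brassinosteroid lists were nearer to balance. Of 100 auxin genes, 15 rose and 32 fell. The auxin-repressed gene MSTRG.3313, of a family linked to dormancy and slow growth, had 2189, 2208 and 2235 FPKM at 35 °C, against 643, 593 and 635 FPKM at 25 °C. The groups did not overlap, with a log2 fold change of 1.76 ± 0.04 (SE, edgeR adjusted p = 2.7e-13). An auxin transport carrier gene, MSTRG.13809, averaged 15.1 ± 0.497 FPKM at 35 °C and 47.6 ± 0.516 FPKM at 25 °C (log2 fold change -1.72 ± 0.06 (SE, edgeR adjusted p = 2.8e-11)). Of 43 abscisic acid genes, 10 rose and 16 fell. ABI5 is a transcription factor of abscisic acid signalling, and the ABI5-like gene MSTRG.19776 averaged 40.7 ± 1.18 FPKM at 35 °C and 19.3 ± 0.967 FPKM at 25 °C (log2 fold change 1.02 ± 0.05 (SE, edgeR adjusted p = 6.3e-10)). Of 35 ethylene genes, 6 rose and 4 fell (6 and 6 with RLE scaling), and of 8 brassinosteroid genes, 3 rose and 3 fell. The merged locus MSTRG.2492, annotated as the enzyme of the last step of ethylene synthesis, averaged 81.6 ± 3.37 FPKM at 35 °C and 32.7 ± 0.174 FPKM at 25 °C (log2 fold change 1.26 ± 0.04 (SE, edgeR adjusted p = 1.8e-12)).

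Gibberellin releases growth when its receptor GID1 binds DELLA repressors. The receptor gene MSTRG.9267 averaged 141 ± 2.35 FPKM at 35 °C and 89.4 ± 4.0 FPKM at 25 °C (log2 fold change 0.60 ± 0.04 (SE, edgeR adjusted p = 5.0e-08)), and a DELLA gene, MSTRG.750, averaged 23.5 ± 2.72 FPKM at 35 °C and 39.4 ± 2.03 FPKM at 25 °C (log2 fold change -0.81 ± 0.09 (SE, edgeR adjusted p = 4.9e-06)). Over the 24 genes of the list, 6 rose and 7 fell. Adenylate isopentenyltransferase, which starts cytokinin synthesis, had 2.69, 2.52 and 2.12 FPKM at 35 °C, against 19.3, 20.3 and 20.6 FPKM at 25 °C in MSTRG.7864, a log2 fold change of -3.09 ± 0.41 (SE, edgeR adjusted p = 1.9e-05). Of 35 cytokinin genes, 4 rose and 10 fell, and 2 rose when any 25 °C replicate was left out. Of 30 jasmonate genes, 7 rose and 14 fell, and a lipoxygenase gene, MSTRG.23125, of an enzyme class that oxidises polyunsaturated fatty acids, averaged 253 ± 8.32 FPKM at 35 °C and 72 ± 5.67 FPKM at 25 °C (log2 fold change 1.75 ± 0.05 (SE, edgeR adjusted p = 1.8e-12)), while allene oxide cyclase, specific to jasmonate synthesis, averaged 41.4 ± 1.55 FPKM at 35 °C and 78.5 ± 5.37 FPKM at 25 °C in MSTRG.17440 (log2 fold change -0.99 ± 0.10 (SE, edgeR adjusted p = 1.8e-06)).

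Among transcription factor families the falls outnumbered the rises for WRKY (7 rose and 19 fell of 59), NAC (5 rose and 14 fell of 40) and bHLH genes (10 rose and 24 fell of 67), against background shares of 25.5% and 23.6%. With limma on log2(FPKM + 1), 12 WRKY genes rose in place of 7. WRKY factors are best known from defence signalling. The merged WRKY70 locus MSTRG.9967 had 4.11, 4.44 and 4.58 FPKM at 35 °C, against 33, 33.2 and 35.1 FPKM at 25 °C, a log2 fold change of -3.01 ± 0.12 (SE, edgeR adjusted p = 5.9e-11). NAC genes moved strongly both ways: MSTRG.19535 averaged 24.1 ± 1.72 FPKM at 35 °C and 3.44 ± 0.176 FPKM at 25 °C (log2 fold change 2.74 ± 0.15 (SE, edgeR adjusted p = 2.8e-09)), and MSTRG.8551 averaged 3.88 ± 0.451 FPKM at 35 °C and 25.3 ± 1.52 FPKM at 25 °C (log2 fold change -2.76 ± 0.16 (SE, edgeR adjusted p = 3.4e-09)). The AP2/ERF, MYB (18 rose and 17 fell of 72) and bZIP families (11 rose and 9 fell of 34) were nearer to balance, and with RLE scaling 16 MYB genes rose and 19 fell, and 9 bZIP genes rose and 10 fell. Of 82 AP2/ERF genes, 15 rose and 20 fell. A RAV1-like gene with AP2 and B3 domains, MSTRG.23876, had 89, 74 and 79.1 FPKM at 35 °C, against 10.5, 10.3 and 9.99 FPKM at 25 °C, with no overlap and a log2 fold change of 2.91 ± 0.09 (SE, edgeR adjusted p = 2.4e-12). A dehydration-responsive element-binding gene, MSTRG.16730, averaged 6.97 ± 1.56 FPKM at 35 °C and 1.46 ± 0.202 FPKM at 25 °C (log2 fold change 2.19 ± 0.16 (SE, edgeR adjusted p = 4.5e-08)), and had 82.1, 88.4 and 90.2 FPKM at 40 °C, a log2 fold change over 35 °C of 3.79 ± 0.15 (SE, edgeR adjusted p = 1.9e-11).

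Histone genes fell more often than they rose, with a prominent exception, and cell division genes were nearer to the background. Of 23 histone genes, 3 rose and 12 fell, and the median log2 fold change was -0.65. Linker histone H1 binds the DNA between nucleosomes, and the H1-like gene MSTRG.13869 (chromosome 8, 4006417 to 4007671) had 1050.4, 1013 and 994 FPKM at 35 °C, against 237, 227 and 232 FPKM at 25 °C. Its log2 fold change was 2.07 ± 0.03 (SE, edgeR adjusted p = 3.0e-15), and it carried the summed level of the list, 1546 to 1642 FPKM at 35 °C and 962 to 1042 FPKM at 25 °C, upward. A core histone gene, H2A.3-like MSTRG.24601, averaged 4.51 ± 0.668 FPKM at 35 °C and 12.3 ± 0.689 FPKM at 25 °C (log2 fold change -1.5 ± 0.22 (SE, edgeR adjusted p = 5.8e-05)). Core histone transcripts are polyadenylated in plants and abundant in dividing cells. Markers of dividing cells, which share histone and cyclin genes with these lists, summed to 1199 to 1225 FPKM at 35 °C and 1508 to 1567 FPKM at 25 °C, and of 126 tested, 18 rose and 38 fell. Of 162 cell cycle and DNA replication genes, 30 rose and 39 fell. The cell cycle inhibitor gene SMR6, MSTRG.13979, had 38.5, 35.2 and 39.9 FPKM at 35 °C, against 7.98, 5.82 and 7.49 FPKM at 25 °C (log2 fold change 2.35 ± 0.10 (SE, edgeR adjusted p = 1.5e-10)), and cyclin-dependent kinase inhibitor 7, MSTRG.14346, averaged 37 ± 1.67 FPKM at 35 °C and 92.3 ± 2.27 FPKM at 25 °C (log2 fold change -1.38 ± 0.10 (SE, edgeR adjusted p = 4.9e-08)). How far fewer dividing cells and less transcript per cell contributed was not tested.

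Water channel genes changed in both directions, and genes that remove reactive oxygen fell more often than they rose. Of 20 aquaporin genes, 7 rose and 7 fell. Plasma membrane aquaporins differed in sign: PIP2-8, MSTRG.19937, had 728, 648 and 658 FPKM at 35 °C, against 340.5, 318 and 325 FPKM at 25 °C (log2 fold change 0.99 ± 0.04 (SE, edgeR adjusted p = 2.0e-10)), PIP2-1, MSTRG.22256, averaged 199 ± 15.7 FPKM at 35 °C and 78.2 ± 2.2 FPKM at 25 °C (log2 fold change 1.29 ± 0.05 (SE, edgeR adjusted p = 8.0e-11)), and the PIP2-4-like MSTRG.7420 averaged 62.7 ± 1.98 FPKM at 35 °C and 133 ± 2.43 FPKM at 25 °C (log2 fold change -1.15 ± 0.11 (SE, edgeR adjusted p = 1.1e-06)). NIP5-1, known in Arabidopsis as a boric acid channel, averaged 3.41 ± 0.405 FPKM at 35 °C and 17.1 ± 0.821 FPKM at 25 °C in MSTRG.4165 (log2 fold change -2.38 ± 0.12 (SE, edgeR adjusted p = 8.6e-10)). Of 28 genes that remove hydrogen peroxide and superoxide, 6 rose and 14 fell, and an iron superoxide dismutase gene, MSTRG.13076, averaged 44.8 ± 2.29 FPKM at 35 °C and 19 ± 1.57 FPKM at 25 °C (log2 fold change 1.18 ± 0.09 (SE, edgeR adjusted p = 6.2e-08)). A glutathione peroxidase gene, MSTRG.2094, averaged 17.4 ± 0.307 FPKM at 35 °C and 32.4 ± 1.44 FPKM at 25 °C (log2 fold change -0.95 ± 0.06 (SE, edgeR adjusted p = 1.5e-08)).

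The 15 largest rises and 15 largest falls among genes with an informative description also held genes outside these lists. The gene annotated as DNA mismatch repair protein-like, MSTRG.3297, had 126, 111 and 115 FPKM at 35 °C, against 7.05, 6.8 and 8.43 FPKM at 25 °C (log2 fold change 3.92 ± 0.08 (SE, edgeR adjusted p = 6.0e-14)). A gene annotated as RNA-directed DNA methylation-like, MSTRG.13574, had 35.5, 42.4 and 43.3 FPKM at 35 °C, against 2.8, 2.63 and 2.6 FPKM at 25 °C (log2 fold change 3.85 ± 0.07 (SE, edgeR adjusted p = 8.0e-15)). Anion transporter 3-like MSTRG.7555 averaged 23.1 ± 1.77 FPKM at 35 °C and 1.66 ± 0.0649 FPKM at 25 °C (log2 fold change 3.73 ± 0.06 (SE, edgeR adjusted p = 3.6e-15)). By the rule that chose them, each of these was higher in all 3 libraries at 35 °C. On the lower side, an NRR repressor-like gene, MSTRG.16151, averaged 0.495 ± 0.306 FPKM at 35 °C and 20.1 ± 3.15 FPKM at 25 °C (log2 fold change -5.34 ± 0.66 (SE, edgeR adjusted p = 9.6e-06)), and a U-box gene, MSTRG.19768, averaged 2.14 ± 0.635 FPKM at 35 °C and 30.3 ± 1.75 FPKM at 25 °C (log2 fold change -3.88 ± 0.27 (SE, edgeR adjusted p = 2.7e-08)). Another 245 genes with no count in any library at 25 °C were called higher, and 137 with no count in any library at 35 °C were called lower. The libraries at 35 °C were also the deeper ones.

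**Figure D5:**
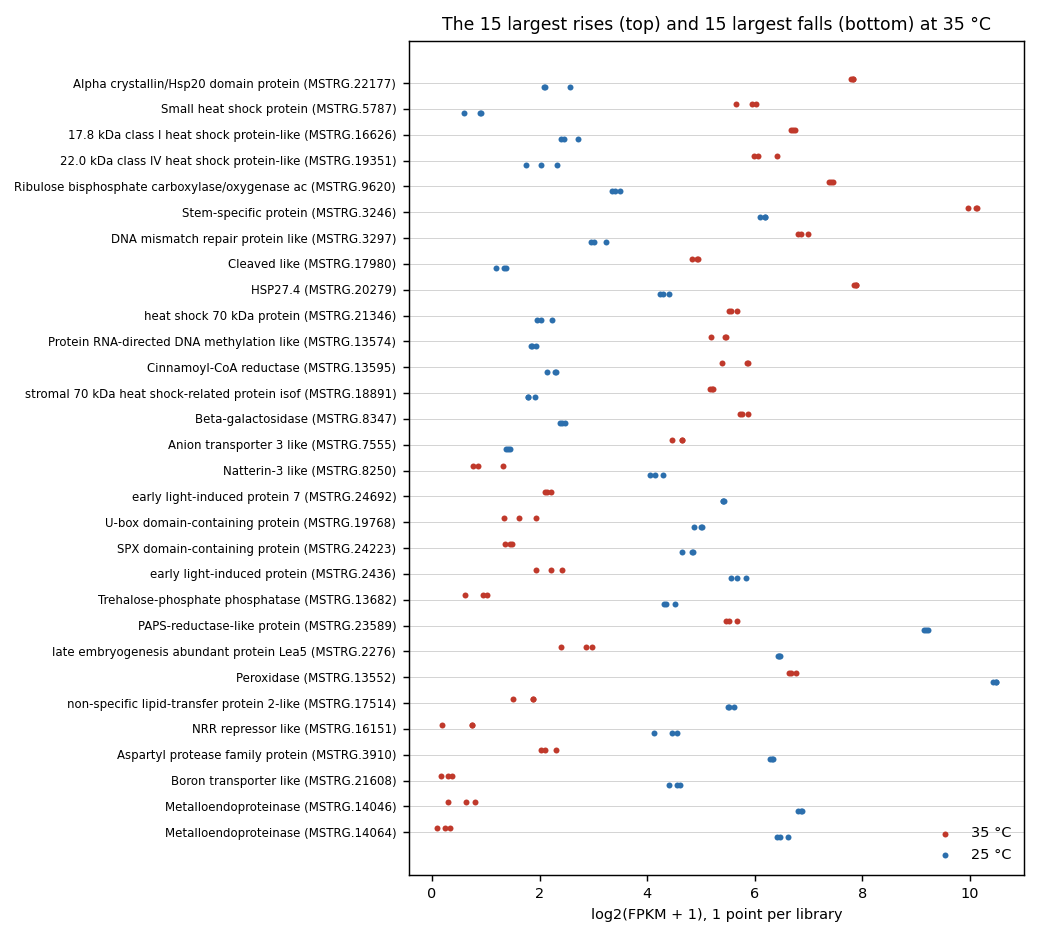
Levels of the 15 largest rises and 15 largest falls at 35 °C, ranked on mean log2(FPKM + 1) over the called genes that carry an informative description. Each point is 1 library (35 °C in red, drawn above 25 °C in blue), and by the rule that chose the genes no row has overlapping groups.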

How the data were processed

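Leaf polyA RNA of Rhododendron 'xiaotaohong' was extracted with Trizol, selected with oligo(dT) and made into dUTP-stranded libraries, per the labels' protocols. The submitters' processing notes name HISAT2 2.0.4, StringTie 1.3.4d and cutadapt 1.9 without saying what each did. Genome build and counting strand are not given in the sources used, which hold only labels, file headers and those notes. The deposited table holds, per the file headers, a raw read count and an FPKM value for each of 29985 genes and library. Each deposited count is a whole number that was not normalized, and 58.8 to 63.0% of counts from 1 to 20 were even, so a fragment may be counted at both ends. The FPKM values deposited by the authors are scaled by gene length and library depth. CK in a column name was read as melatonin-free, after the series design. There were also 6 value columns that match no labelled sample, and these were left aside. Loci that carry no gene name (3033) were kept in the fit, with 5.05 to 5.32% of each library's counts at 35 °C and 25 °C.

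The main test was edgeR 4.0.16's quasi-likelihood test (R 4.3.3) on the counts, with TMM scaling, filterByExpr, 5 group means over 15 libraries and 10 residual degrees of freedom. Its p-values are two-sided and Benjamini-Hochberg adjusted over 26183 genes. Alternatives were RLE scaling, no count filter, the 6 libraries alone, a replicate block, DESeq2 1.42.0, limma 3.58.1 on log2(FPKM + 1), on log2(FPKM + 0.1), on rescaled FPKM and without a filter (its filter was 0.5 FPKM), a threshold of 0.01, and leaving out each of the 6 libraries. The scripts were tested on simulated counts, with changes planted only in genes above a minimum count. Of 100 changes planted at a log2 size of 1, 73 were called. Of 100 planted at a log2 size of 2, 82 were called, and that simulation gave 10 false calls.

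Lists (78, of which 75 had at least 5 tested genes) are words matched in the deposited descriptions, and every description of a locus had to match. The members and lists were chosen with earlier results of these data known, and stray matches were removed after values were seen. The lists of other organelle factors, aminoacyl-tRNA synthetases and early light-induced proteins were also added after values were seen. Lists are therefore described and not tested. Loci with several gene names (1316) are called merged, and close paralogs were not separated further. Named genes were called, had an informative description, a mean of at least 5 FPKM in the higher group and groups that did not overlap. They are the 15 genes that rose most and the 15 that fell most on the log2(FPKM + 1) scale, and the 3 largest rises and falls of each list. Counts are of reads without molecular identifiers, so depth sets counting error only.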

Additional observations from a re-analysis of the deposited data

How the results depend on the processing

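The counts of genes higher and lower at 35 °C kept within 1.5 times of 6674 and 6172 under all 16 alternatives. Leaving out each library in turn gave 6055 to 6281 higher and 5490 to 5714 lower, and 2154 to 2262 and 1882 to 2031 at least 2-fold higher and lower, against 2283 and 2090 with all libraries. The counts at least 2-fold changed were smaller with limma on log2(FPKM + 1), where the pseudocount shrinks the fold of low genes: 1066 higher and 1261 lower, 1061 and 1257 without a filter, and 967 higher on rescaled FPKM. With the replicate block 6499 rose and 5972 fell. The replicate numbers were not taken as pairs, since the deviations of same-numbered libraries correlated at 0.029, 0.020 and 0.015. Each library correlated best with its own number in the other group, a hint from the data only, and the block moved no count by over 1.5 times. Of the genes called, 52.0% were higher, against 48.5% with RLE scaling and 56.8% with limma on log2(FPKM + 0.1).

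Of 428 named genes, 414 kept their call and direction under every alternative, 14 lost the call under at least 1, and 0 reversed. PPR genes called higher numbered 233 to 315 and lower 10 to 17 over the alternatives. Of 2400 list counts, 47 moved by over 1.5 times. Which of rises and falls was the larger turned under some scaling for 5 of 75 lists: terpenoid synthesis, MYB, bZIP, disease resistance and cytochrome P450. With 3 libraries a group, genes of few counts have the widest error, and a difference in harvest hour or plants between the groups cannot be told apart from temperature.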

Other observations

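In the deposited pathway annotation, oxidative phosphorylation and several vesicle groups leaned lower at 35 °C. Oxidative phosphorylation held 154 tested genes, of which 20 rose and 62 fell, with a median log2 fold change of -0.245. The phagosome pathway, which in plants holds mainly proton pump and transport genes, had 16 rises and 56 falls among 103, and vesicle fusion (SNARE) genes had 5 rises and 16 falls among 41. In the other direction, RNA degradation held 69 rises and 32 falls among 189, and valine, leucine and isoleucine biosynthesis, the branched-chain amino acids, held 11 rises and 3 falls among 23. Aminoacyl-tRNA synthetases, which load amino acids onto tRNA, were nearer to balance (23 rose and 17 fell of 78).

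Carotenoid genes leaned lower (3 rose and 11 fell of 27). Carotenoid cleavage dioxygenase 4, MSTRG.12806, which breaks carotenoids down, had 47.9, 47.6 and 51 FPKM at 35 °C, against 160.1, 159.7 and 154 FPKM at 25 °C. The groups did not overlap, and the log2 fold change was -1.75 ± 0.07 (SE, edgeR adjusted p = 7.9e-11). Phytoene synthase, which commits carbon to carotenoids, averaged 54.4 ± 3.24 FPKM at 35 °C and 85.4 ± 2.34 FPKM at 25 °C in MSTRG.18268 (log2 fold change -0.71 ± 0.05 (SE, edgeR adjusted p = 1.8e-08)). Calcium signalling also leaned lower (27 rose and 48 fell of 126), with the CBL-interacting kinase MSTRG.23230 at 88.8 ± 6.86 FPKM at 35 °C and 265 ± 29.4 FPKM at 25 °C (log2 fold change -1.64 ± 0.18 (SE, edgeR adjusted p = 2.7e-06)). Cytochrome P450 genes were balanced (23 rose and 21 fell of 86, and 23 rose and 24 fell with RLE scaling) and held changes of both signs: MSTRG.10300 averaged 7.95 ± 0.322 FPKM at 35 °C and 0.666 ± 0.25 FPKM at 25 °C (log2 fold change 3.5 ± 0.59 (SE, edgeR adjusted p = 1.9e-04)), and the merged locus MSTRG.21926 averaged 44.8 ± 1.66 FPKM at 35 °C and 165 ± 3.23 FPKM at 25 °C (log2 fold change -1.94 ± 0.07 (SE, edgeR adjusted p = 3.0e-11)). Of 13 genes of tryptophan and melatonin synthesis, 3 rose and 4 fell between 35 °C and 25 °C.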
